A study of Mus musculus with 20 samples.

Results

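Among macrophages grown from monocytes (Mo-MF), 175 of 10235 cells carried high levels of neutrophil granule transcripts, and these granule-rich cells are described here. They were chosen by 2 sums of corrected counts in each cell, at least 100 of S100a8 plus S100a9 and at least 20 of Ngp, Camp and Ltf together. Of the 31683 cells profiled by single-cell RNA-sequencing (scRNA-seq) in the study, 20798 came from cultures and 10885 from tumors. The study asked how macrophages arising from B-cell precursors (B-MF) differ from Mo-MF and whether they occur among tumor-associated macrophages (TAM). The other cells were split for comparison. The other S100-high cells (749) reached the S100 threshold but held under 20 counts of the 3 granule genes, and the S100-low cells (9244) had under 50 S100 counts. The remaining 67 cells, with 50 to 99 S100 counts, were placed in no class.

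All groups were murine macrophage samples. The Mo-MF and B-MF groups were each 2 libraries of cultured macrophages, derived from monocytes or B cells respectively, and TAM were 4 libraries of macrophages isolated from tumors. In the study, the cultured macrophages were grown from bone marrow B cells or monocytes in conditioned medium of a breast cancer line, 4T1.2, and suspensions were sort-purified before loading. The TAM were sorted from 4 mice with 4T1.2 tumors. The mice were young females of several strains. Which strain gave the scRNA-seq cultures, the gate used for them and whether the 2 libraries came from separate animals were not given in the sources used here. P-values therefore measure how far differences between classes varied from library to library, and that spread may be technical. The labels call every Mo-MF sample macrophage, whereas the cells described here had high neutrophil transcripts.

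Neutrophils fill their granules in order while they mature in bone marrow. Promyelocytes make the proteases and myeloperoxidase of primary granules, myelocytes make lactoferrin, cathelicidin and lipocalin of specific granules, and later stages make gelatinase and then the receptors and cytokines of the circulating cell. Division stops after the myelocyte stage. Of the genes of the rule, S100a8 and S100a9 encode the calprotectin subunits of neutrophil cytosol, Ngp a cystatin-like granule protein, Camp the cathelicidin precursor, and Ltf the iron-binding lactoferrin. C/EBPε, encoded by Cebpe, is the transcription factor required for specific granule formation.

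The promoters of the 3 granule genes of the rule and of Lcn2 are shown since these transcripts set the cells apart. Each runs from 250 bases before the RefSeq gene start to 50 from the start on (GRCm38.p6, the sequence of mm10). Ngp lies at chr9:110419558-110419857 on the plus strand, Camp at chr9:109849407-109849706 on the minus strand, Ltf at chr9:111019042-111019341 on the plus strand and Lcn2 at chr2:32387690-32387989 on the minus strand. Capitals mark matches to TTGCNNAA on either strand, a pattern of the kind bound by C/EBP factors, which was chosen after these promoters had been read.
Ngp: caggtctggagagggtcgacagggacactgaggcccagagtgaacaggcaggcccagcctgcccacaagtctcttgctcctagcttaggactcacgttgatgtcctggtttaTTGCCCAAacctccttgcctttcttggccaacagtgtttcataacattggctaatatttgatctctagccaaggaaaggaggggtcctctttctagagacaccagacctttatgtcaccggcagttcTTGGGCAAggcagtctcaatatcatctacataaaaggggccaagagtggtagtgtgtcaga
Camp: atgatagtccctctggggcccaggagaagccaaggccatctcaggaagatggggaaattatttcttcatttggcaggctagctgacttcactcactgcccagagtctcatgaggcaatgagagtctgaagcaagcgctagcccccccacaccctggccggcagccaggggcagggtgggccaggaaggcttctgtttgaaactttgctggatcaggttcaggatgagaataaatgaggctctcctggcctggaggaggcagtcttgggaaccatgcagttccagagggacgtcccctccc
Ltf: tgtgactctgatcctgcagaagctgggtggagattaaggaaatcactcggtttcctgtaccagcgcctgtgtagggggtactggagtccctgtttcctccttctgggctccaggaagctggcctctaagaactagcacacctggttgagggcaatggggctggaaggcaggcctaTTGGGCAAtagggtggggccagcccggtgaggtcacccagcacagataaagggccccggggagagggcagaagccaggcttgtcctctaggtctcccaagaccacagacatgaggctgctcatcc
Lcn2: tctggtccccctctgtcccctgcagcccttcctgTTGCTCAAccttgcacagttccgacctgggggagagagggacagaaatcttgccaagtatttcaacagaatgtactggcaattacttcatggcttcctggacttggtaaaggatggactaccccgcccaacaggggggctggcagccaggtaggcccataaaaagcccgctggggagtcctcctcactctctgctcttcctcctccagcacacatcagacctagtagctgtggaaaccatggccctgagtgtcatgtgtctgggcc
Ngp held 2 matches, Ltf 1, Lcn2 1 and Camp 0. Over the first listed promoter of 27025 genes, 10.8% held the pattern. Of the 13 genes of the specific granule list, 12 had a promoter and 5 of these held it (41.7%), namely Lcn2, Ltf, Mmp8, Ngp and Ptx3. In the primary granule list 3 of 10 promoters held it, in the stefin A cluster 1 of 4 and in the mitosis list 0 of 13. Since the pattern was chosen on promoters counted here, these shares are descriptions and no list was shown to differ from another. These are letter matches in short windows and not measured binding.

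The granule-rich class made up 2.04% of cells in replicate 1 (99 of 4846, exact 95% interval 1.66 to 2.48%) and 1.41% in replicate 2 (76 of 5389, 1.11 to 1.76%). The intervals cover counting error only. Among S100-high cells it made up 20.7% and 17.0%. No B-MF cell met the rule (0 of 5237 and 0 of 5326, which allows a share of up to 0.0573% and 0.0563% by a limit of 3 counts, and 0.0704% and 0.0692% as exact 95% upper bounds), and 3 B-MF cells passed the S100 threshold. The granule sum was spread so that few cells lay near the threshold. Just inside were cells with 22, 25, 27, 29 and 31 counts, and just outside cells with 19, 19, 19, 18 and 17. Of all S100-high cells, 625 had a granule sum of 0, 17 had 10 to 19, 11 had 20 to 39 and 146 had 100 or more. The lowest S100 sum of a granule-rich cell was 433. Between the Mo-MF libraries 14 cell barcodes were shared, 0 of them in granule-rich cells, and 1 granule-rich barcode of replicate 2 also occurred in a B-MF library. The median corrected total was 18091 and 17828 counts in granule-rich cells, 17228 and 17251 in other S100-high cells, and 19519 and 19403 in S100-low cells. The median number of detected genes was 3026 and 2487.5, 3053 and 3056.5, and 3893 and 3799, respectively.

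**Figure D1:**
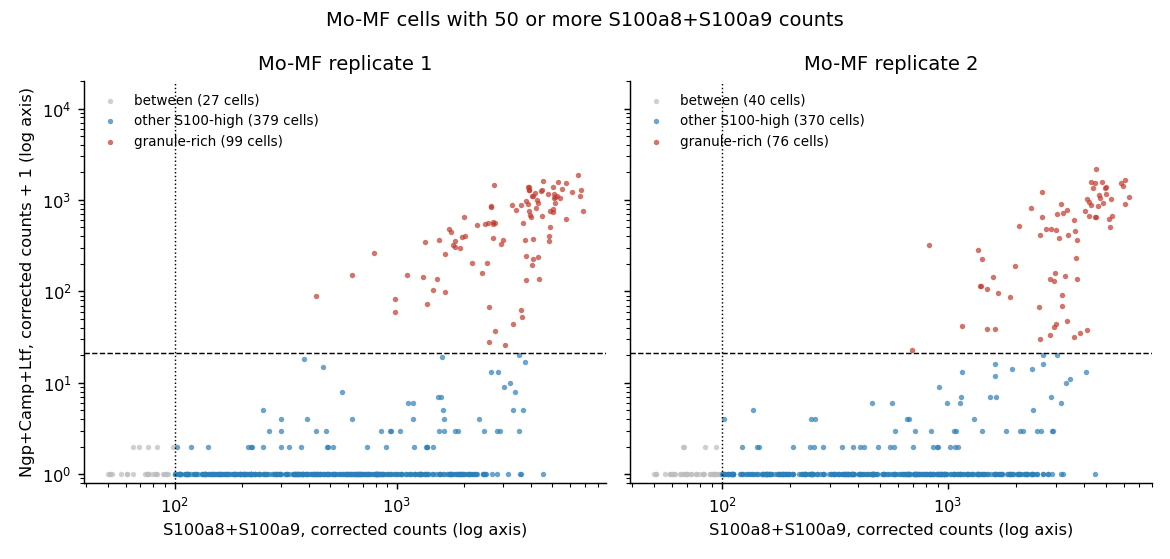
Each point is a Mo-MF cell with 50 or more S100a8+S100a9 counts, with that sum on the x axis and Ngp+Camp+Ltf plus 1 on the y axis (both log, corrected counts), by library. The dashed line is the granule threshold and the dotted line the S100 threshold. The 175 granule-rich cells lie toward the upper right, and most other S100-high cells lie at 0 granule counts.

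The 6 given markers had been chosen on these data, so their levels describe the cells and do not test the name. Ngp averaged 395 and 364 corrected counts per cell in the granule-rich cells of replicates 1 and 2, with medians of 339 and 321.5 and a range from 15 to 1375. In other S100-high cells it averaged 0.541 and 0.657. Camp averaged 130 and 127 in granule-rich cells, and Ltf 115 and 97.1. The 3 genes chose the cells, so these levels carry no test. Camp was at 0 in 7 cells of replicate 1 and in 8 of replicate 2, so the rule could be met without it. The other 3 markers were outside the rule but, being chosen on these data, are descriptions as well. Lcn2, lipocalin that withholds iron from bacteria, averaged 262 and 237 counts, against 23.3 and 23.7 in other S100-high and 0.117 and 0.0948 in S100-low cells. Pglyrp1, a peptidoglycan-binding granule protein, averaged 59.3 and 57.8, against 5.08 and 5.02 and against 0.0375 and 0.0379. Stfa3, a stefin A cysteine protease inhibitor, averaged 55.2 and 52 (0 counts in some cells and up to 213), against 9.27 and 9.68 and against 0.024 and 0.0226. For all 3 the libraries of the classes did not overlap, and granule-rich cells were the highest class. Over all 8385 genes tested below, the libraries of granule-rich and other S100-high cells did not overlap for 21.1% with higher and 50.7% with lower values in granule-rich cells, and those of granule-rich and S100-low cells for 22.5% and 66.7%. Outside the neutrophil lineage, mean levels of basophil and mast cell genes were 0 for 6 of 6 genes, of dendritic cell genes 0 for 3 of 3 in the table, and early progenitor genes summed to 0 and 0.0263. Ms4a1, a B-cell marker, was at 0. The cells are called granule-rich here, since only some of them carried transcripts of division, as described below.

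Macrophage transcripts were present in the granule-rich class. The 13 macrophage genes summed to 285 and 290 counts per cell, against 488 and 504 in other S100-high and 992 and 967 in S100-low cells, and each of the 13 was detected. The level was uneven between cells. Apoe, the apolipoprotein abundant in macrophages, averaged 149 and 157 counts in granule-rich cells, whereas its medians were 20 and 16. At least 10 counts of C1qa, C1qb, C1qc, Mrc1 and Csf1r together were found in 46.5% and 51.3% of granule-rich, 95.5% and 94.6% of other S100-high and 88.9% and 89.5% of S100-low cells. No doublet caller was run, and the part of these transcripts in the differences below was not tested. Each list was therefore also counted without S100-high cells holding 50 or more of these 5 transcripts, which left 86 and 65 granule-rich and 305 and 297 other S100-high cells. The limit of 10, which left 53 and 37 granule-rich but only 17 and 20 other S100-high cells, was also applied.

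The classes were compared with limma on log2 of the mean corrected count per cell plus 0.1, in each class and library, with the library as a block. Adjusted p-values are Benjamini-Hochberg values over 8385 genes, and a gene was called at an adjusted p of at most 0.05. The 5 genes of the rule were left out. Against other S100-high cells, 1190 genes were higher in granule-rich cells (14.2%) and 3075 were lower (36.7%), so 50.9% were called in either direction. The median log2 difference over all genes was -0.19. With no filter on means, 8.31% of 15418 genes were higher and 18.2% lower. Against S100-low cells, 1477 were higher (17.6%) and 4817 lower (57.4%), or 75.1% in either direction, with a median of -0.44. A call says that a difference was large beside the disagreement of class differences between the 2 libraries. A shift of a library shared by all classes was taken out by the block. The spread was pooled over the classes and moderated across genes. The classes were cut on neutrophil genes, so a higher level of other neutrophil genes is close to what the rule used. Gene lists are given by their counts beside those shares. Genes named only as an exception within a list were chosen after their values were seen.

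Most specific granule genes were higher in granule-rich cells. Apart from the 3 rule genes, 9 of the 10 other list genes were tested, and 8 were higher in granule-rich than in other S100-high cells, with a median log2 difference of 3.398. Of these 8, Lcn2 and Pglyrp1 were given markers chosen on these data, so their part in the count is a description. Olfm4, which encodes olfactomedin 4, averaged 19.4 and 21.9 counts against 0.427 and 0.427 (log2 difference 5.30, SE 0.0898, adjusted p = 9.64e-05 in limma). Cd177, a surface glycoprotein stored in these granules, averaged 11.2 and 10.6 against 0.475 and 0.549 (4.17, SE 0.096, adjusted p = 0.000134). The chitinase-like Chil3 averaged 17.3 and 19 against 1.13 and 1.95, and Chil1 10.4 and 11.6 against 2.9 and 2.77. The remaining one, Mmp8, which encodes neutrophil collagenase, overlapped between the classes with 15.8 and 18.3 against 16.8 and 17 (log2 difference 0.01, SE 0.0949). Against S100-low cells all 9 were higher. The count against other S100-high cells was again 8 of 9 under both macrophage limits.

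Within the granule-rich class Olfm4 had only a weak relation to the granule sum. It was detected in 30.3% and 40.8% of the cells, its median was 0 in both libraries, and its highest values were 161 and 252. Spearman's rho with the Ngp, Camp and Ltf sum was 0.22 and 0.09 across the 99 and 76 cells, whereas Lcn2 had 0.78 and 0.80 with that sum. Chil1 was detected in 100% of cells of both libraries. Cells of one library share its depth and preparation, so these values are descriptions.

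Of the primary granule genes, Serpinb1a was present in most granule-rich cells, whereas Elane and Mpo came from few. Of 10 genes tested, 7 were higher than in other S100-high cells and 2 lower, with a median log2 difference of 3.54. Mpo, Ms4a3 and Fcnb passed the filter on means only through the granule-rich class, so being tested and being higher are tied for them. The same may hold for other genes with low means outside that class, such as Prss57 here and Itgb2l of the specific granule list. Serpinb1a, an inhibitor of neutrophil proteases, was detected in 98.0% and 93.4% of the cells and averaged 10 and 8.95 counts against 0.243 and 0.3 (4.69, SE 0.115, adjusted p = 0.000155 in limma). Elane, neutrophil elastase, averaged 1.68 and 8.24 against 0.066 and 0.468 (3.65, SE 0.481, adjusted p = 0.00332), and Mpo, myeloperoxidase, 1.13 and 4.04 against 0.00792 and 0.124 (3.86, SE 0.396, adjusted p = 0.00167). Replicate 2 was the higher library for both genes in both classes. Elane was detected in 8 cells of replicate 1 and 7 of replicate 2, with a highest value of 275, so its mean rested on a small number of cells. Prtn3, proteinase 3, averaged 10.2 and 15.9 with medians of 1 and 1, and was detected in 65.7% and 57.9% of cells. Ms4a3 and Fcnb, further transcripts of early granulocytes, averaged 1.11 and 1.71 and 2 and 2.61 counts. Ctsc, which activates the proteases, and Srgn, the proteoglycan that packs them, were lower than in other S100-high cells (-1.58 and -1.69). Ctsg, cathepsin G, was 0.0707 and 0.684 against 0.0475 and 0.0595 and was not called. Under the macrophage limit of 10, where 17 and 20 cells remained for comparison, 6 of the 10 were higher and Elane was not called (log2 difference 1.23, adjusted p = 0.13 in limma).

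Gelatinase granule genes were not raised as a group. Of 5 tested, 1 was higher than in other S100-high cells and 3 lower, with a median log2 difference of -0.36. Itgam, the CD11b integrin chain, was higher (0.90, SE 0.084, adjusted p = 0.00132 in limma). Hpse, Slc11a1 and Adam8 were lower, by differences of -0.61, -0.55 and -0.36. Mmp9, gelatinase B, averaged 6.45 and 6.53 against 7.77 and 7.34 (-0.22, SE 0.0834, adjusted p = 0.0849) and was far above the 0.372 and 0.393 of S100-low cells.

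**Figure D2:**
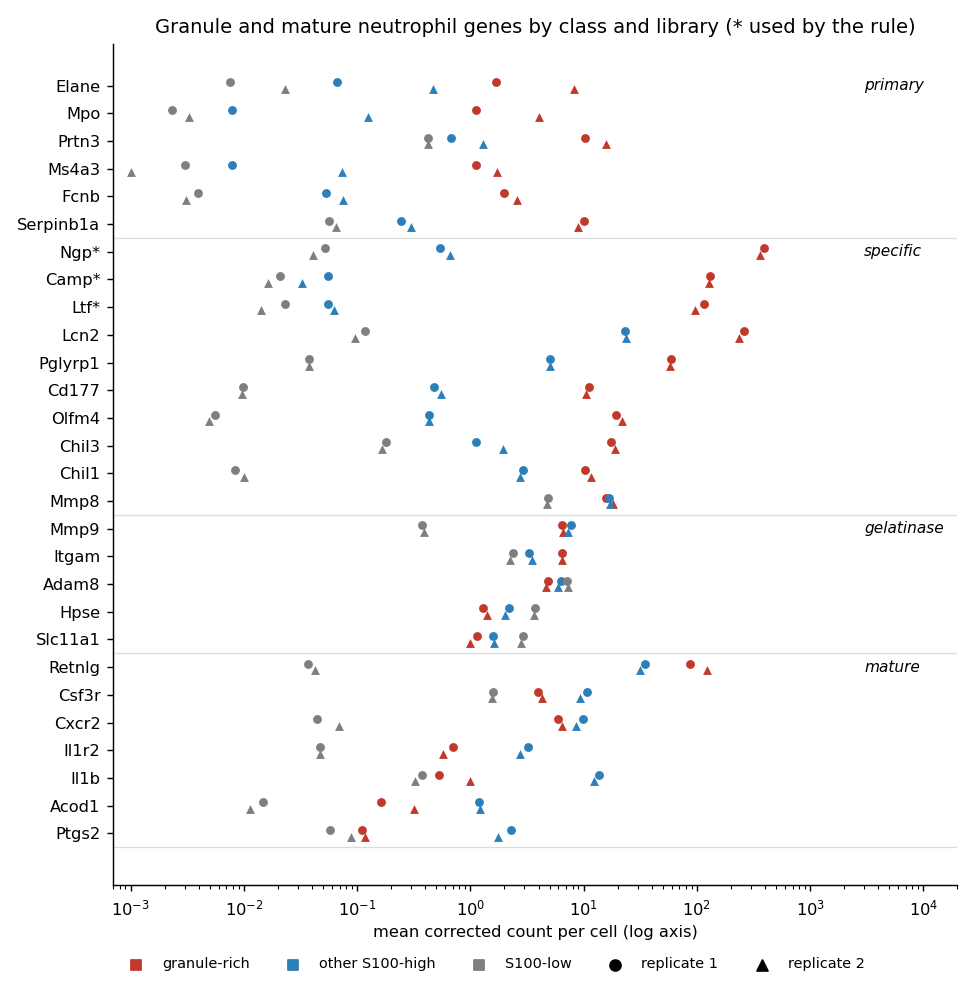
Mean corrected count per cell (log axis) of primary, specific and gelatinase granule and mature neutrophil genes, by class (colour) and library (symbol). An asterisk marks genes that chose the cells. Specific granule genes separate granule-rich from other S100-high cells except Mmp8, gelatinase genes lie close together, and Il1b, Acod1 and Ptgs2 are lower in granule-rich cells.

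Transcripts of mature and activated neutrophils were lower than in other S100-high cells for 11 of 19 genes. The other calls were 5 higher (median log2 difference -0.88), while 16 were higher and 2 lower than in S100-low cells. Lower values than in other S100-high cells were called for 36.7% of all genes and 71.8% of genes with a mean of at least 1. Il1b, interleukin-1β, averaged 0.525 and 0.987 counts against 13.6 and 12.5 (-3.99, SE 0.254, adjusted p = 0.000606 in limma). Ptgs2, the inducible cyclooxygenase, averaged 0.111 and 0.118 against 2.3 and 1.74 (-3.29, SE 0.164, adjusted p = 0.000422). Il1r2, a decoy receptor for interleukin-1, and Acod1, which makes itaconate, differed by -2.06 and -1.98, and Clec4d, a C-type lectin receptor, by -1.75. Retnlg, a resistin-like secreted protein, went the other way with 87.5 and 122 counts against 35.2 and 31.6 (1.63, SE 0.164, adjusted p = 0.00158). Its median in granule-rich cells was 23 and 28.5, so the mean was carried by cells at up to 741. Of 9 chemokines and cytokines, 6 were lower and 1 higher than in other S100-high cells, and 6 were lower and 3 higher than in S100-low cells. Cxcl2, a CXCR2 ligand, averaged 1.38 and 4.17 against 35.7 and 35 (-3.82, SE 0.398, adjusted p = 0.00173), and Cxcl3 0.152 and 0.184 against 4.2 and 3.5 (-3.88, SE 0.132, adjusted p = 0.000199). Tnf was the higher one, at 0.323 and 0.368 against 0.116 and 0.219. At the macrophage limit of 10, 0 of the 9 were higher in either comparison, and 7 and 6 were lower. Without cells at 10 or more macrophage counts, 7 of 19 mature genes were lower and 4 higher, where 40.8% of all genes were lower and 6.05% higher, so the share of lower ones was no larger than over all genes. Ptgs2 lost its call (adjusted p = 0.0717 in limma).

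Among receptors, 7 of 12 were lower and 2 higher than in other S100-high cells. Over all genes 36.7% were lower, and 71.8% of those with a mean of at least 1. At the macrophage limit of 10, 5 of 12 were lower, a share near the 40.8% of all genes in that setting. Csf3r, the receptor for G-CSF, averaged 3.95 and 4.3 against 10.8 and 9.34 (-1.26, SE 0.105, adjusted p = 0.00105 in limma). Cxcr2, the receptor that draws neutrophils from marrow, averaged 5.9 and 6.41 against 9.8 and 8.64 (-0.57, SE 0.121, adjusted p = 0.0141), but its difference was 0.06 under the macrophage limit of 10. The leukotriene B4 receptor Ltb4r1 was higher at 5.89 and 5.67 against 2.84 and 2.38 (1.12, SE 0.104, adjusted p = 0.00131), and the formyl peptide receptor Fpr2 at 3.35 and 3.09 against 1.75 and 1.68. The call of Fpr2 was lost at the macrophage limit of 10 (0.81, adjusted p = 0.0638 in limma). Ccr2, the monocyte chemokine receptor, was at 0.192 and 0.263 against 1.47 and 1.72. All 6 NADPH oxidase genes were higher than in other S100-high cells. Against S100-low cells 5 were higher and Cyba was lower, at 44.4 and 45.1 against 55 and 55.5 (-0.30, adjusted p = 0.0172 in limma). Cybb, the catalytic subunit gp91phox, averaged 25.2 and 23.1 against 4.57 and 5.22 (2.28, SE 0.106, adjusted p = 0.00037), with Ncf1 at 1.37 and Rac2 at 1.12 on the log2 scale. Cyba differed by 0.27 only. The oxidase count was 5 of 6 per 10000 of the class total and without cells at 50 or more macrophage counts, and 4 of 6 at the limit of 10, where Cyba had the opposite sign (-0.25).

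Of the transcription factors tested, Cebpe had the largest difference. It passed the filter on means only through the granule-rich class, so being tested and being higher are tied for it. It averaged 7.39 and 7.12 counts in granule-rich cells, against 0.164 and 0.151 in other S100-high and 0.0343 and 0.0343 in S100-low cells (log2 difference 4.84, SE 0.0784, adjusted p = 9.64e-05 in limma, against other S100-high cells). Within the class its rho with the granule sum was 0.75 and 0.73. Of 15 factors tested, Cebpe and Klf2 were higher and 11 were lower than in other S100-high cells. The share of lower genes was 36.7% over all genes and 71.8% at a mean of at least 1. At the macrophage limit of 10, where 17 passed the filter, 3 were higher and 8 lower, beside 40.8% lower over all genes. Cebpb, a factor of emergency granulopoiesis, averaged 9.28 and 9.76 against 29.8 and 26.4 (-1.55, SE 0.0944, adjusted p = 0.000551), and Cebpa 0.646 and 0.513 against 1.2 and 1.16 (-0.92, SE 0.0953, adjusted p = 0.00172). Junb and Nfil3 differed by -1.28 and -1.19. Maf, a macrophage factor, was at 1.76 and 2.16 against 3.77 and 3.93. Cebpd and Spi1 were not called. Gfi1, a repressor active in granulocyte progenitors, was below the level tested, at 0.152 and 0.0789 counts, and was at 0 in other S100-high cells of both libraries.

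**Figure D3:**
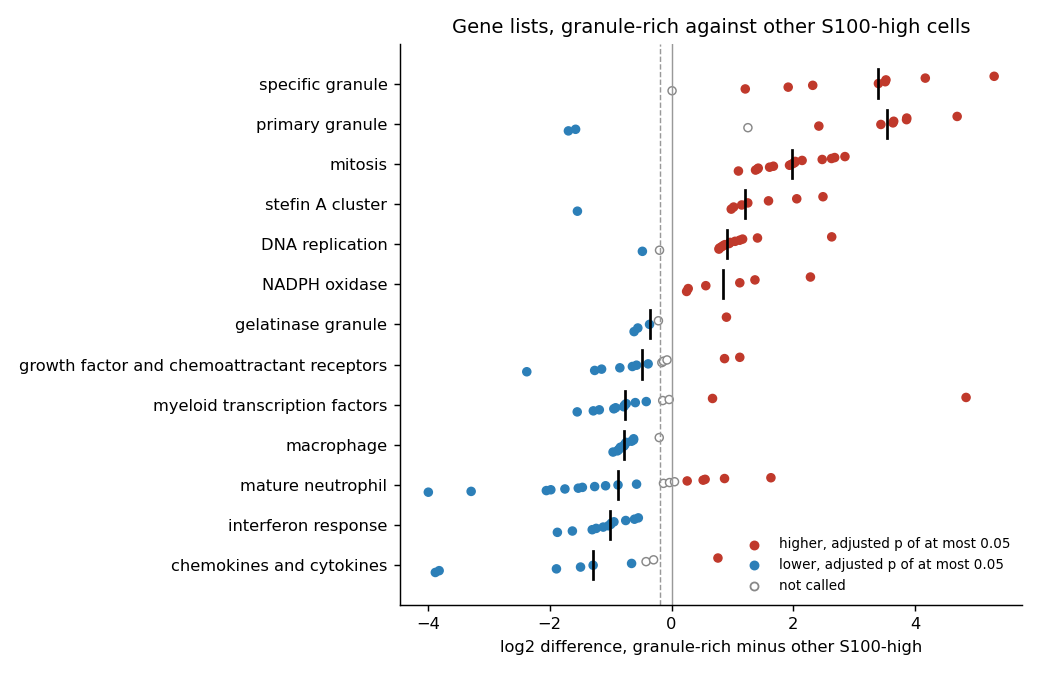
Each point is a gene of a list, at its log2 difference between granule-rich and other S100-high cells (log2 of mean corrected count plus 0.1, limma). Filled red and blue points passed an adjusted p of 0.05, black bars are list medians, and the dashed line is the median of all 8385 genes (-0.19). All 16 mitosis and 8 of 9 specific granule genes are higher, while 12 of 12 interferon response genes are lower.

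Genes of cell division were higher in granule-rich cells. All 16 mitosis genes were called higher than in other S100-high cells and higher than in S100-low cells, with a median log2 difference of 1.99 against other S100-high cells. Mki67, a marker of cycling cells, averaged 2.48 and 2.88 counts against 0.193 and 0.408 in other S100-high and 0.551 and 0.555 in S100-low cells (2.85, SE 0.198, adjusted p = 0.00074 in limma against other S100-high cells). Top2a, topoisomerase II, averaged 1.87 and 2.5 against 0.153 and 0.43 and against 0.53 and 0.583. The DNA replication list was higher for 12 of 14 genes against other S100-high cells, led by Rrm2 of ribonucleotide reductase (2.63, SE 0.235, adjusted p = 0.00119), with Pcna lower (-0.48). Against S100-low cells 8 were higher and 2 lower (median 0.37). At the macrophage limit of 10, 6 of 14 were higher and 0 lower than in other S100-high cells (median 0.62). Against S100-low cells, 6 were higher and 1 lower at that limit (median 0.72). At least 3 counts of the mitosis list were found in 25.3% of granule-rich cells in replicate 1 (25 of 99, exact interval 17.1 to 35%) and in 30.3% in replicate 2 (23 of 76, 20.2 to 41.9%). The shares were 6.07% and 7.03% in other S100-high and 9.91% and 10.5% in S100-low cells. Thinned to 5000 counts per cell, with no cell lost, they were 20.2% and 25% in granule-rich, 2.11% and 3.51% in other S100-high and 4.93% and 5.55% in S100-low cells. All 16 genes were called again without cells at 50 or more macrophage counts. At the limit of 10, 3 of 16 were called higher and 0 lower (median 1.10), with 17 and 20 cells left in the comparison class.

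The division transcripts sat in a part of the class with a profile of its own. The cuts on mitosis, Retnlg and Elane plus Mpo counts, here and in the next paragraph, were chosen after values were seen. In 39 granule-rich cells (21 and 18) the mitosis sum was 10 or more, and in 127 (74 and 53) it was under 3. The following values compare these sets as a description, with no test. Ngp averaged 661 and 565 counts in the former and 313 and 276 in the latter, and Cebpe 13.6 and 13.6 against 5.45 and 4.83. Chil3 averaged 45.3 and 30.2 against 8.88 and 14.4. Retnlg, Mmp8, Mmp9 and Stfa3 ran the other way. Retnlg averaged 2.05 and 3.33 in the cells with 10 or more mitosis counts and 116 and 172 in those under 3. Mmp8 averaged 2.38 and 1.89 against 20.2 and 25.1, Mmp9 0.714 and 1.39 against 8.32 and 8.75, and Stfa3 8.76 and 17.6 against 70.2 and 66.1. Ltf and Cybb differed little between the sets, with Ltf at 135 and 101 against 106 and 95.1 and Cybb at 27.3 and 25.2 against 24.3 and 22.5. Of the 49 cells with 100 or more Retnlg counts, 48 had a mitosis sum under 3 and 0 had 10 or more.

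High Elane and Mpo counts were found in a small subset of the cells with mitosis transcripts. Elane and Mpo together reached 20 counts in 7 cells, 3 in replicate 1 and 4 in replicate 2, and 7 of these 7 had a mitosis sum of 10 or more. Their Prtn3 averaged 269 counts, with a range from 35 to 588. Ngp averaged 640 in them, but the medians of Camp and Ltf were 16 and 14, and Retnlg did not exceed 1 count. In the 127 cells with a mitosis sum under 3, Elane was at 0 in every cell and Mpo did not exceed 1 count. The class thus spanned transcripts from primary granules to Retnlg and Mmp8, although each cell had passed the same thresholds.

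Across all granule-rich cells, the granule sum was lower where Mmp8, Mmp9 and Retnlg were high. Spearman's rho of the Ngp, Camp and Ltf sum was -0.63 and -0.69 with Mmp8, -0.57 and -0.66 with Mmp9 and -0.48 and -0.57 with Retnlg, across 99 and 76 cells. Mmp8 and Retnlg were high in the same cells (rho 0.68 and 0.76). With the macrophage transcript sum, the granule sum had a rho of -0.62 and -0.53. Cells with under 10 macrophage counts averaged 559 and 556 counts of Ngp, whereas the 13 and 11 cells with 50 or more averaged 170 and 196. The part of macrophage transcripts in these relations was not tested. Mitosis sums also went with the total per cell (rho 0.45 and 0.70), and the part of the total was not tested.

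**Figure D4:**
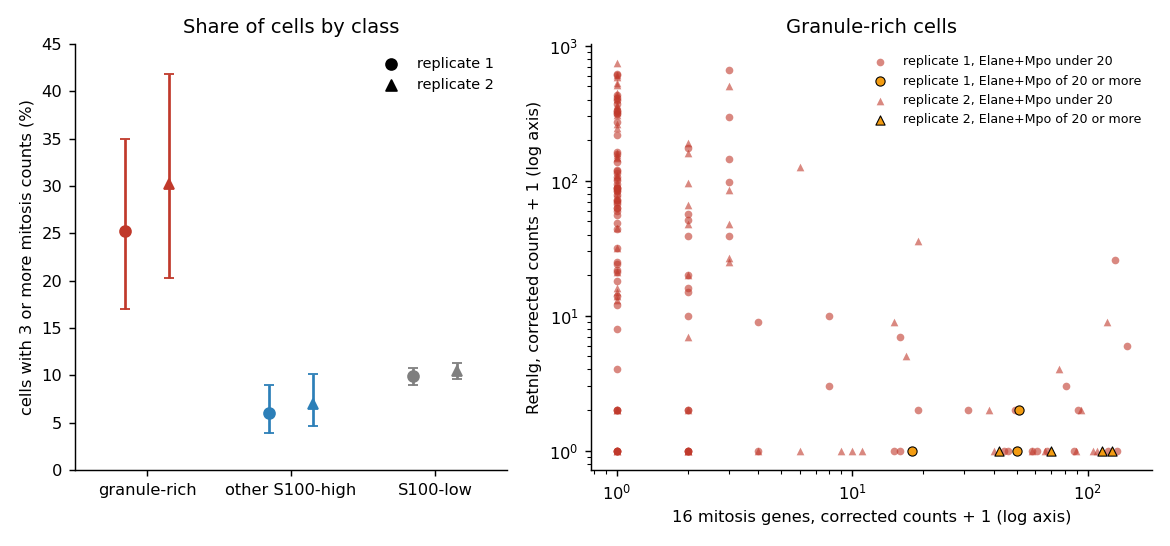
Left, the percentage of cells with at least 3 corrected counts of 16 mitosis genes, by class and Mo-MF library, with exact 95% intervals. Right, Retnlg against the mitosis sum in the 175 granule-rich cells (counts plus 1, log axes). The share is 25.3% and 30.3% in granule-rich cells, and the 7 cells with 20 or more Elane and Mpo counts (orange) lie at high mitosis and low Retnlg counts.

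The stefin A cluster lies on chromosome 16 (Stfa3 at chr16:36450537-36455392, minus strand, in the GENCODE vM21 annotation of GRCm38). Of its 8 genes, 7 were higher than in other S100-high cells and 1 was lower, and all 8 were higher than in S100-low cells. Stfa3, among the 7, was a given marker chosen on these data, so its part in these counts is a description. BC100530 was the most abundant at 304 and 276 counts, against 95 and 97.1 (1.59, SE 0.0997, adjusted p = 0.00059 in limma). BC117090 averaged 12.4 and 11.2 against 2.91 and 2.62. Gm5416 was the lower one, with 2.76 and 4.59 against 10.2 and 11 (-1.55, SE 0.178, adjusted p = 0.00227). At the macrophage limit of 10 its call was lost (-0.90, adjusted p = 0.0712 in limma), which left 0 stefin A genes lower. These genes are close paralogs, so how reads were split between them is uncertain.

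The genes with the largest differences were also read, and those not yet described are given here. Beside granule genes and Cebpe, 4 genes were among those most raised over other S100-high cells. Adpgk, a glucokinase that uses ADP, was at 5.05 and 5.05 counts against 0.164 and 0.235 (4.12, SE 0.127, adjusted p = 0.000187 in limma). Hmgn2, a nucleosome-binding protein, was at 14.2 and 14.3 against 0.868 and 0.803 (3.94, SE 0.0828). Only called genes whose libraries did not overlap between the classes entered this ranking. Ceacam10 was at 5.83 and 4.41 against 0.285 and 0.235. Syne1, which links the nucleus to the cytoskeleton, was at 7.81 and 7.53 against 0.43 and 0.451. Those lower were, beside the cytokines above, Acta2 with 0.232 and 0.145 counts against 3.09 and 3.65 (-3.60, SE 0.171), Tnfrsf23 (-3.43), Vcan (-3.33), Steap4 (-3.30), Slc7a11, the cystine transporter (-2.81), and E230032D23Rik (-2.80). Against S100-low cells the ranking also held Wfdc21 at 56.6 and 54.3 counts against 0.0385 and 0.0398, and Ly6g, which defines murine neutrophils at the surface, at 25.4 and 25.5 against 0.0104 and 0.00714. Ly6g was at 1.89 and 2.39 in other S100-high cells. Those lowest against S100-low cells included Mmp12 (-2.61), Itgax (-2.32), Fn1 (-2.22), Gpnmb (-2.09) and Cd36 (-2.07), with Bex1, Rnf128, Pdpn, Bhlhe41 and Gm42418 between -2.25 and -2.08.

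Of the lists outside the granulocyte program, the interferon response, macrophage, monocyte and ribosomal protein lists held mostly lower genes. All 12 interferon response genes were lower than in other S100-high cells (median log2 difference -1.02), with 11 of 12 lower at the macrophage limit of 50. At the limit of 10, 8 of 12 were lower and the median was -1.61, beside -0.59 over all genes. There Ifit1 and Rsad2 were among those that lost their calls, at -0.53 and -1.40. With all cells, Ifit1 differed by -1.13 and -2.13 and Rsad2 by -1.51 and -0.97 in replicates 1 and 2. Isg15 averaged 1.89 and 1.53 counts against 6.47 and 6.52 (-1.87, SE 0.104, adjusted p = 0.00048 in limma). Against S100-low cells 9 were lower and Isg15 was not called, at 1.85 and 1.77. Of 13 macrophage genes, 12 were lower than in other S100-high and 13 lower than in S100-low cells. At the macrophage limit of 10, which acts on 5 genes of this kind itself, 10 were lower and 2 higher than in other S100-high cells. Of monocyte genes, 5 of 6 were lower than in other S100-high cells and Ly6c2 was higher at 2.36 and 2.39 against 0.562 and 0.638, a call lost under the macrophage limit of 10 (adjusted p = 0.577 in limma). Ribosomal protein genes were lower for 72 of 82 (median -0.48), Rps27 by -0.93 and Rplp1 by -0.90. Among all genes with a mean of at least 1, 71.8% were lower, with a median of -0.46 near the ribosomal one. Of 13 mitochondrially encoded genes 5 were lower than in other S100-high cells, a share near that of all genes. They took 2.98% and 2.90% of counts in granule-rich, 3.12% and 3.37% in other S100-high and 5.27% and 5.41% in S100-low cells. Cd3d, a T-cell receptor component, was at 1.98 and 1.67 counts against 0.1 and 0.181 (3.02, SE 0.181, adjusted p = 0.000542 in limma), and Nkg7, the other gene of the T and NK cell list in the table, was at 0.0606 and 0.474. Cd3d passed the filter on means only through the granule-rich class, so being tested and being higher are tied for it.

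In TAM, 220 of 10885 cells met the same rule, at 26, 77, 49 and 68 cells in libraries 2 to 5. That table was normalized separately, with median totals of 8605 to 8663 counts in these cells, so levels are set side by side only. Ngp averaged 126, 157, 142 and 134 counts, Camp 32.8, 57.2, 45.3 and 40.8, and Cebpe 0.269, 0.455, 0.592 and 0.412. At least 3 mitosis counts were found in 2, 11, 3 and 5 cells, and Elane plus Mpo reached 20 counts in 0 cells of every TAM library. Il1b averaged 27.9, 9.19, 18.4 and 18.9 in these TAM cells, and 0.525 and 0.987 in the granule-rich cells of Mo-MF. Directions were compared for the named genes and the genes of the lists other than the ribosomal proteins, where tested in Mo-MF and present in the TAM table. The difference between granule-rich and other S100-high cells had the same sign in all 6 libraries for 128, opposite signs in Mo-MF and TAM for 9 and mixed signs for 50. Some of these genes were named for their large Mo-MF differences, and both tables were cut by the same rule. The comparison class was not alike, since other S100-high cells made up 7.82% and 6.87% of Mo-MF libraries and 43.9% to 64.4% of TAM libraries. The share over all genes was not computed, so the counts do not measure agreement. Several genes, such as Aurka, Plk1 and Mertk, had TAM means under the pseudocount of 0.1 in every library and class.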

How the data were processed

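The deposited scRNA-seq values are natural logs of 1 plus an SCTransform-corrected count. Per the methods, the authors processed reads with Cell Ranger and normalized them with SCTransform in Seurat, and per the labels the build was mm10. expm1 gave whole numbers within 1e-06 for all values, so corrected counts were recovered. Since the correction changes each cell's counts, the original depth is unknown and no count model was used. Cells were classed by the thresholds given in the report and averaged per class and library. limma 3.58.1 (R 4.3.3) was fitted to log2(mean + 0.1) for genes whose 6 class means averaged 0.1 or more, with class and library as terms (2 residual and 3.05 prior degrees of freedom). Classes of a library are the same preparation, so the library number pairs them. Genes were named by a rule: the markers, up to 6 genes of each list at a mean of 1 or more, and the 10 largest differences in each direction past the threshold, apart from the rule genes. The genes with the largest differences also had to have class libraries that did not overlap. The cells and lists were chosen with earlier results of these data known. TAM columns are numbered 2 to 5 and TAM samples 1 to 4, so TAM libraries are named by column. The ATAC-seq libraries were not used here. Python 3.11.15 with pandas 2.3.3 and scipy 1.17.1 gave the counts and exact intervals.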

Additional observations from a re-analysis of the deposited data

Results flagged for a closer look

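Among the named genes and the genes of the lists other than the ribosomal proteins, the difference between granule-rich and other S100-high cells went one way in both Mo-MF libraries and the opposite way in all 4 TAM libraries for 9. Mmp9 had a mean log2 difference of -0.22 in Mo-MF (-0.26 and -0.17) and differences of 1.25, 1.12, 0.88 and 0.996 in TAM libraries 2 to 5. Spi1 also was lower in Mo-MF means (-0.0381) and higher in TAM, by 0.09 to 0.37. Neither gene was called within Mo-MF. The other genes were called higher in Mo-MF. Klf2 had 0.67 in Mo-MF and between -2.60 and -1.37 in TAM. Tnf had 0.76 in Mo-MF and between -1.78 and -0.87 in TAM. Hdc, which makes histamine, had 0.55 against -0.75 to -0.45, and Mxd1, a MYC antagonist, 0.26 against -0.59 to -0.25. The replication genes Rrm1 and Mcm3 had 0.95 and 0.85 in Mo-MF, with TAM values of -0.77 to -0.11 and -0.76 to -0.03. Their TAM means were at most 0.0703 and 0.0688 counts in every library and class, under the pseudocount of 0.1, so these signs rest on very few counts. Stfa2l1 had 0.98 in Mo-MF (1.03 and 0.93) and -0.07, -0.24, -0.28 and -0.52 in TAM. The difference between Mo-MF and TAM was not tested for any of them, since the tables were normalized separately. The other S100-high class also differed between them. At least 10 macrophage counts were found in 95.5% and 94.6% of its cells in Mo-MF and in 8.18% to 17.8% in TAM. The part of this class in the opposite signs was not tested.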

How the results depend on the processing

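The limits are the 2 libraries, small classes and corrected counts. The 4 counts of calls (1190 higher and 3075 lower than other S100-high cells, 1477 higher and 4817 lower than S100-low cells) stayed within 1.5 times under both other pseudocounts, no filter, scaling per 10000, a variance trend, both other granule thresholds, an S100 threshold of 200 and the fit with no replicate block, which gave 1226, 3153, 1497 and 4808. With a mean of at least 1, which left 2246 genes, they were 309, 1612, 575 and 1396. Without S100-high cells at 10 or more macrophage counts, 518 genes were higher than in other S100-high and 970 higher than in S100-low cells, and of the 1190, 442 were called again. In that setting 28 of 222 named values lost their call with the same sign, and 2 lost it with the opposite sign, Cyba (-0.25) and Cxcr2 (0.0562) against other S100-high cells. The limit of 50, chosen after seeing the data, gave 1251, 2823, 1403 and 4790. With a granule threshold of 10, Ifit1 against S100-low cells turned from -0.16, not called, to 0.43, called higher (adjusted p = 0.0179 in limma). The mean share of granule-rich cells (1.73%) was 0.89% without cells at 10 or more macrophage counts, and 1.41% to 2.04% leaving out a replicate. The mean share with mitosis counts (27.8, 6.55 and 10.2% in granule-rich, other S100-high and S100-low cells) was 22.4, 3.08 and 5.21% at 10 or more counts and 22.6, 2.81 and 5.24% after thinning. Leaving out a library leaves no residual degrees of freedom, so counts of calls were not recomputed without one. The cause of these changes was not tested beyond the number of genes or cells left.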
